A study of Mus musculus with 40 samples.

Results

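Ribosome footprints of the cytosol fraction were compared between mouse embryonic fibroblasts treated with thapsigargin for 2 h and untreated cells. The members of the comparison are the genes of the deposited table that carry a value in all 4 cytosol footprint libraries of these groups: 4976 of 22417 genes, of which 4971 also had a mean of at least 1 RPKM (reads per kilobase of coding length, scaled to library size) over the cytosol footprint libraries and were tested. Each group has 2 libraries, numbered 1 and 2. The untreated and the treated cells share the genotype GADD34-/-, which removes the stress-induced subunit that directs protein phosphatase 1 to the initiation factor eIF2alpha, so no comparison here is one of genotypes. The treated cells received 1 uM thapsigargin, and the other cytosol footprint groups are 0.5, 1 and 4 h of it. The labels do not say how many clones or cultures the cells came from, so a p-value measures only the spread between these libraries. The protocol released the cytosol with digitonin after a short exposure to cycloheximide, extracted the endoplasmic reticulum (ER) fraction with dodecyl maltoside, and digested with micrococcal nuclease to obtain footprints.

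Thapsigargin blocks the calcium pump of the ER, empties its calcium store and so disturbs protein folding there. The sensor PERK then phosphorylates eIF2alpha, which lowers initiation on most mRNAs, while mRNAs with certain upstream open reading frames, such as those of ATF4 and CHOP, are read more. GADD34 normally reverses that phosphorylation. mRNAs of secreted and membrane proteins are translated mainly on the ER, and those of cytosolic and nuclear proteins mainly on free ribosomes, although ER-bound ribosomes translate many of the latter too.

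Recovered reads (whole numbers of reads that the RPKM values imply) were 272340 and 5389247 in untreated replicates 1 and 2, and 337403 and 351406 at 2 h. A gene is listed in a footprint library from 4 reads on, so the depth of the shallower libraries sets which genes are members. Ppp1r15a, the gene of GADD34, was listed in none of the 4 libraries and in 2 of all 39 (2.89 RPKM in ER footprints of untreated replicate 2 and 19.3 RPKM in the library labelled cytosol footprints 0.5 h replicate 2). Of 12 fibroblast markers 8 were tested and 0 passed the test in either direction. Vim, which encodes vimentin, had 2336 and 2497 RPKM in untreated cells and 1566 and 1145 RPKM at 2 h. Of macrophage and endothelial markers 0 were listed in these 4 libraries, and of 6 epithelial markers 1, Krt19, was.

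The untreated libraries stood apart from each other, in genes of secreted and membrane proteins, and histones also differed between them (below). A column without a heading in the deposited table marks genes TRUE or FALSE, and what the mark means is not given in the sources used here. TRUE are 41 of 42 tested matrix and secreted proteins, 24 of 25 ER chaperones and 23 of 23 receptors and membrane proteins, but 0 of 63 replication-dependent histones and 0 of 83 ribosomal proteins. For 623 tested genes marked TRUE the log2 ratio of RPKM, replicate 1 over replicate 2, was taken with nothing added to RPKM. Its median was 2.27 in untreated cells and 0.06 at 2 h. For the 4348 genes marked FALSE these medians were 0.06 and 0.06. Lists rich in genes marked TRUE are therefore given with and without each untreated library. In bulk samples, fewer cells and less RNA per cell cannot be told apart, and RPKM values are relative to the other genes of a library.

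**Figure D1:**
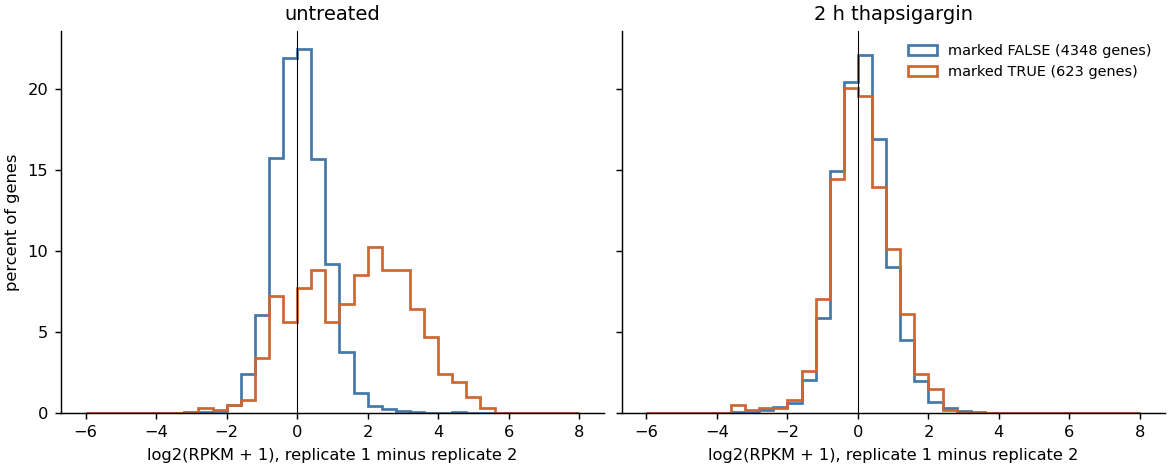
Distribution over genes of log2(RPKM + 1) in replicate 1 minus replicate 2, in untreated cells (left) and at 2 h (right), as percent of the genes marked TRUE or FALSE; the lines are histograms over 623 and 4348 genes, with extreme values in the end bins. Medians of the log2 ratio without the added 1, which the plot does not show, were 2.27 (TRUE) and 0.06 (FALSE) in untreated cells. At 2 h both were 0.06.

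Footprints of 294 genes (5.91% of those tested) rose and of 308 (6.2%) fell at 2 h, and 4369 did neither (limma, adjusted p under 0.05). The 12 largest rises were those of CHOP, Gadd45g, calreticulin and 9 replication-dependent histones. A kinesin motor, an endocytic adaptor, fatty acid synthase and chromatin regulators were among the largest falls. All 602 changes that passed the test were at least 1.30 in size on the log2 scale, and in each of them both libraries at 2 h lay on the same side of both untreated ones. Over all genes tested, groups that did not overlap were common, at 24.7% higher and 36.5% lower. The median gene stood at -0.14, the quartiles at -0.91 and 0.64, and the median standard error was 0.505.

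Scaling moved the balance. With every library rescaled to an equal sum of RPKM the median gene stood at -0.62, and 183 genes rose and 744 fell. With the median gene of each library set to 0 the counts were 340 and 268. All 602 genes kept their sign in each fit that leaves out 1 library, but the number called depended on single libraries: 618 up (10.5%) and 101 down (1.72%) without untreated replicate 1, 36 (0.72%) and 13 (0.26%) without untreated replicate 2, 5 (0.0911%) and 0 (0%) without 2 h replicate 1, and 28 (0.52%) and 4 (0.0743%) without 2 h replicate 2. In these fits the remaining library of the group is taken to vary like the other groups. Ddit3, Gadd45g, Hist1h2ae, Hist1h2bm and Hist1h2bp passed in all 4.

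**Figure D2:**
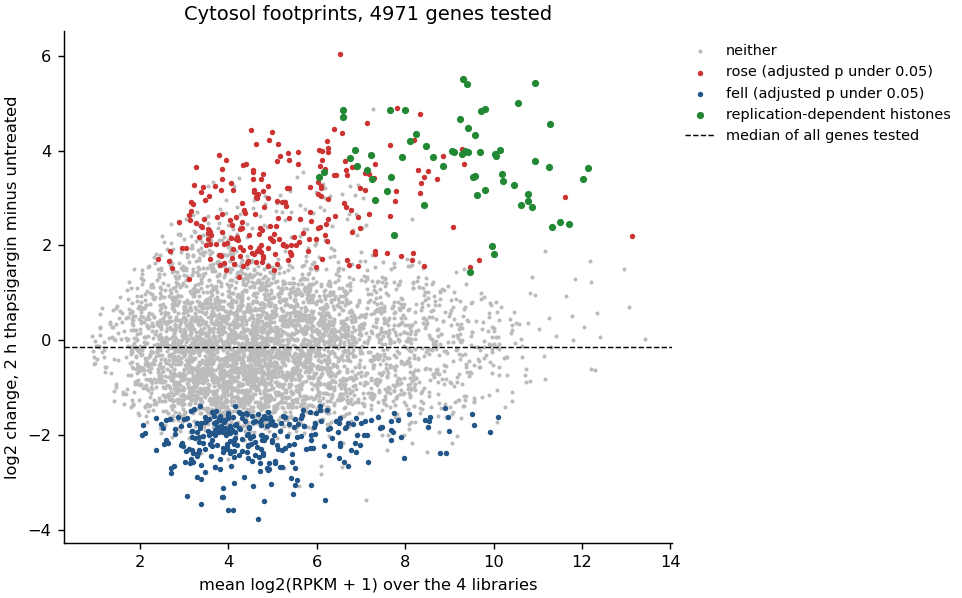
Log2 change in cytosol footprints, 2 h thapsigargin minus untreated (vertical axis), against the mean log2(RPKM + 1) over the 4 libraries (horizontal axis), for 4971 genes; red and blue points passed the test, green points are replication-dependent histones and the dashed line is the median gene at -0.14. The histones lie in the upper right, and the highest point is Ddit3 at 6.02.

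Ddit3 (NM_007837), which encodes the stress transcription factor CHOP, had the largest change. It was at 15.2 and 7.12 RPKM in untreated cells, from 4 and 36 reads, and at 909 and 612 RPKM at 2 h, from 278 and 195 reads. The groups lay far apart, and the log2 change was 6.02 with SE 0.50 (adjusted p in limma 0.00126), or 5.52 to 6.52 when 1 library was left out. Atf4 (NM_009716), the factor that drives the integrated stress response, had 196 and 120.0 RPKM untreated and 1748 and 3669 RPKM at 2 h. That is a log2 change of 4.04 with SE 0.72 (adjusted p in limma 0.0116). Atf5, a related factor, went from 40.7 and 37.3 to 375 and 566 RPKM, a log2 change of 3.53 (adjusted p = 0.00769). Ifrd1, a transcriptional coregulator whose mRNA carries an upstream reading frame, went from 52.8 and 32.2 to 283 and 284 RPKM, a log2 change of 2.75 (adjusted p = 0.00848). In all 4 genes the lower library at 2 h exceeded the higher untreated one by several fold. The calls of Atf4, Atf5 and Ifrd1 held without untreated replicate 1 and were lost without any 1 of the other 3 libraries.

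Other mRNAs described as translated through upstream reading frames did not move as a group. Of 24 tested, 5 rose (these 4 and Gadd45g, below), 1 fell and 18 did neither, beside 5.91% up and 6.2% down of all genes tested. The median was 0.26 beside -0.14 for all genes (-0.26 beside -0.62 with equal sums). The faller was Txnrd1, thioredoxin reductase, which went from 137 and 201 to 38.7 and 62.1 RPKM (-1.74, adjusted p = 0.0328). Jun was at 23 and 39.4 RPKM untreated and 104 and 159.8 RPKM at 2 h and did not pass (log2 difference 2.06, adjusted p = 0.0575). Cebpb and Ddit4, regulators that respond to stress, had overlapping groups with log2 differences of -0.00 and 0.02. Start-site factors Eif1 and Eif5 had -0.997 and -1.18 and did not pass, and neither did Odc1, ornithine decarboxylase, at -3.06 (adjusted p = 0.126). The list had 7, 2, 2 and 2 genes up without untreated replicates 1 and 2 and 2 h replicates 1 and 2.

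Genes that ATF4 and CHOP are known to induce were mixed. Of 23 tested, 3 rose and 1 fell (median 0.26, or -0.24 with equal sums), beside 5.91% up and 6.2% down of all genes tested. Nupr1, a small stress-induced nuclear protein, went from 135 and 123 to 2216 and 847 RPKM, a log2 change of 3.40 with SE 0.57 (adjusted p in limma 0.00921). Slc3a2, the heavy chain of amino acid exchangers, rose by 3.80, and Herpud1, of ER-associated degradation, by 2.93. Both are membrane proteins whose untreated libraries differed, at 52.2 and 5.49 and 27.9 and 4.35 RPKM. Slc3a2 changed by 2.28 without untreated replicate 2 and 5.32 without replicate 1, and Herpud1 by 1.72 and 4.15. Xpot, the tRNA exporter, fell from 38 and 37.6 to 9.17 and 4.95 RPKM (-2.32, adjusted p = 0.0345). Some targets had no value in untreated replicate 1 and were not tested. Chac1, which degrades glutathione, had 17.9 RPKM in untreated replicate 2 and 91.3 and 92.3 RPKM at 2 h. Atf3, a stress-induced transcription factor, had 5.14 and then 36.4 and 26.2 RPKM. Other untested targets went the other way. Sesn2 had 15.3 RPKM in untreated replicate 2 and 8.81 RPKM in 2 h replicate 2, with no value in either replicate 1. Cebpg had 68.2 and 25.5 RPKM untreated and no value at 2 h. These are examples, and the untested targets were not counted by direction. The rises of the list became 7 without untreated replicate 1, 0 without untreated replicate 2 or 2 h replicate 1, and 1 without 2 h replicate 2.

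Immediate early genes, transcription factors and feedback regulators switched on within minutes of a stimulus, rose or did not pass. Of 36 tested, 18 rose, 0 fell and 18 did neither, beside 5.91% up and 6.2% down of all genes tested. The median was 1.82 beside -0.14 (1.71 to 1.84 when 1 library was left out). All 3 GADD45 stress sensors rose. Gadd45g was at 72.4 and 51 RPKM untreated and 2398 and 1191 RPKM at 2 h, a log2 change of 4.77 with SE 0.49 (adjusted p in limma 0.0023). Gadd45b went from 79.9 and 55.7 to 1411 and 1124 RPKM (4.22), and Gadd45a from 50.4 and 39.3 to 419.6 and 393 RPKM (3.16). In each of them the groups were clearly apart.

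Inhibitors of differentiation, which bind and block helix-loop-helix factors, rose too. Id3 went from 955 and 1285 to 9585 and 8372 RPKM (3.01, adjusted p = 0.0105), Id1 from 95 and 111 to 1054 and 1012 RPKM (3.32) and Id2 from 219 and 182 to 696 and 507 RPKM (1.57). Among other factors the Notch target Hes1 rose by 3.49, Klf10 by 2.97, Egr1 by 2.71, the AP-1 subunit Junb by 2.61 and Ier2 by 2.55. Ctgf, a secreted growth factor, and Ptgs2, the prostaglandin synthase COX-2, rose by 4.59 and 4.02, with untreated libraries that differed widely (99.4 and 7.27 and 48.8 and 4.47 RPKM). Ctgf changed by 2.79 without untreated replicate 2 and 6.39 without replicate 1, and Ptgs2 by 2.42 and 5.61. Myc, Fosl1 and Dusp1 did not pass, at 1.26, 1.27 and 0.84. Fos was listed in 3 libraries, with 1.75 RPKM in untreated replicate 2 and 23.2 and 25 RPKM at 2 h. Of the 36, 15 and 6 rose without untreated replicates 1 and 2, and 1 and 5 without 2 h replicates 1 and 2.

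Histones had the most rises of the gene lists used. Replication-dependent histone genes encode the histones that package newly made DNA, and their mRNAs end in a stem-loop without a poly(A) tail. Of 63 tested, 58 rose, 0 fell and 5 did neither, with a median of 3.77, beside 5.91% up of all genes tested. In all 63 both libraries at 2 h were above both untreated ones, which held for 24.7% of all genes tested. Together the histones held 4.74% and 2.38% of the summed RPKM in untreated cells and 23.6% and 29.4% at 2 h. Leaving out 1 library kept the median between 3.40 and 4.10, but 66, 20, 3 and 18 passed without untreated replicates 1 and 2 and 2 h replicates 1 and 2. Equal sums left 57 up.

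Every class of histone took part. All 19 tested H2A and all 14 H2B genes rose, with medians of 4.00 and 4.17, as did 12 of 13 H4 genes (median 3.36), 8 of 12 H3 genes (2.78) and 5 of 5 linker H1 genes (2.94). The summed H2A level was 3782 and 1534 RPKM in untreated cells and 48664 and 57019 RPKM at 2 h. The summed H3 level was 13883 and 4722 RPKM and then 46393 and 60099 RPKM, so H3 started highest and differed most between the untreated libraries. The 5 that did not pass were Hist2h3b, Hist1h3h, Hist1h3i, Hist1h3g and Hist1h4a, named after their values were seen. Many core histone genes are near-identical copies, so the split of reads between them is uncertain. Single genes that passed in all 4 fits were Hist1h2ae, from 142 and 60.5 to 4070.4 and 4441 RPKM (5.50, SE 0.52), Hist1h2bm, from 35.5 and 37.7 to 1006 and 1170.5 RPKM (4.85), and Hist1h2bp, from 18.5 and 15.4 to 382 and 695 RPKM (4.85).

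The rest of the 12 largest rises held Hist1h2ab at 5.42, Hist3h2a at 5.40, Hist1h2bh at 5.01, Hist4h4 at 4.88, Hist1h2ah at 4.85 and Hist1h2ac at 4.83. Hist1h1a (NM_030609), the linker histone with the largest change, went from 595 and 430.0 to 8152 and 17652 RPKM (4.57). Replacement histones, whose mRNAs are polyadenylated and made outside S phase, divided: of 8 tested, 2 rose and 1 fell (median 0.27, or -0.23 with equal sums). H2afx, the variant that is phosphorylated at DNA breaks and is also made from a stem-loop mRNA, went from 165 and 191 to 2312 and 2399 RPKM, a log2 change of 3.72 with SE 0.60 (adjusted p in limma 0.00786). H2afj rose by 1.82, macroH2A (H2afy) fell by 1.75 on the log2 scale, and H2afz had 0.47 with overlapping groups. Genes of DNA replication had 0 up and 2 down of 34 (median -0.08), beside 5.91% up and 6.2% down of all genes tested.

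**Figure D3:**
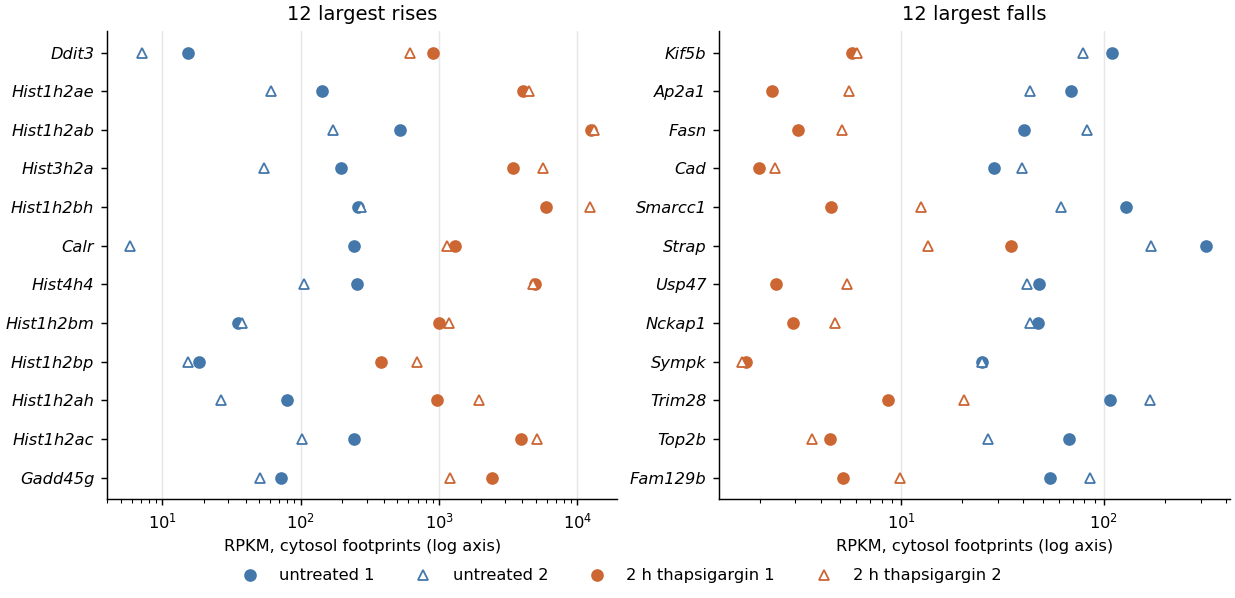
RPKM in each of the 4 cytosol footprint libraries (log axis) for the 12 largest rises (left) and the 12 largest falls (right); circles are replicate 1, open triangles replicate 2, blue untreated and orange 2 h. No orange point overlaps the blue ones of its gene, and Calr is the gene whose untreated libraries lie farthest apart, at 243 and 5.85 RPKM.

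Promoter windows of RefSeq (build GRCm38.p6, 250 bases before to 50 after the annotated start) were read for 2 of the histones because their group moved together. Capitals mark CCAAT and TATAAA on either strand. Hist1h2ae lies at chr13:23571171-23571470, minus strand, and Hist1h1a at chr13:23763418-23763717, plus strand.
Hist1h2ae: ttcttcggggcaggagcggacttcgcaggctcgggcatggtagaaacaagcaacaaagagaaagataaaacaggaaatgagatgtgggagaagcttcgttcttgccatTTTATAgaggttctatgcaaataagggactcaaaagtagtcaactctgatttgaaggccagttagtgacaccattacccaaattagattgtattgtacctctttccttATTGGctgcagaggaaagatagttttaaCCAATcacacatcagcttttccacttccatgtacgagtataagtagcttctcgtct
Hist1h1a: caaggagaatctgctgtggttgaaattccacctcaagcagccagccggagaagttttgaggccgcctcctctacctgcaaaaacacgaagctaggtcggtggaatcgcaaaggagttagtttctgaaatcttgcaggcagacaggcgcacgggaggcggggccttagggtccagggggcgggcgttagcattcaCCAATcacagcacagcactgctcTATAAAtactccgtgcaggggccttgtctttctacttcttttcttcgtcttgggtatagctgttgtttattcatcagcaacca
Of 58 tested replication-dependent histones with a window, 49 (84.5%) held CCAAT and 33 (56.9%) held TATAAA. Of the 3853 tested genes with a window 41.9% and 7.71% did, and of all 27025 windows 37.9% and 14.2%. These are letter matches and no evidence of binding. Matches on both strands were counted together, so some may belong to a neighbouring gene. In Hist1h2ae the marked TTTATA is TATAAA read on the opposite strand.

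Windows of Gadd45g (chr13:51846425-51846724, plus strand) and Nupr1 (chr7:126625421-126625720, minus strand) are given because they hold the letters TGATGNAAN on either strand, the form of the C/EBP-ATF element that ATF4 and CHOP are known to bind. Capitals mark it, and also CCAAT and TATAAA in Gadd45g.
Gadd45g: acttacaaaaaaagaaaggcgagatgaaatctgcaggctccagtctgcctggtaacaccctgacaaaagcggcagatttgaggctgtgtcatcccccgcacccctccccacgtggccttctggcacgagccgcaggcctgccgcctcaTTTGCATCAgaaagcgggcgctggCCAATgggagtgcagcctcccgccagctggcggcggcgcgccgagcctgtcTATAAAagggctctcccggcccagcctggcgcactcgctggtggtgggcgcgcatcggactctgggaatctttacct
Nupr1: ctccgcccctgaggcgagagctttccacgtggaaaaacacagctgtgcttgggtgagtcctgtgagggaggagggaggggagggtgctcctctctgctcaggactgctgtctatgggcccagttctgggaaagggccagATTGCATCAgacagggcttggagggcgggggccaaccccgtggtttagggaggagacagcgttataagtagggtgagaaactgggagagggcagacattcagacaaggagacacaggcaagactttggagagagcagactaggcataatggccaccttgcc
Of 18 tested ATF4 and CHOP targets with a window, 5 (27.8%) held these letters, of the 3853 tested genes 2.13% and of all windows 4.04%. Of 235 genes that rose and had a window, 10 (4.26%) held them.

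Proteins of the ER lumen were higher at 2 h, and here the untreated libraries differed widely. Of 25 tested ER chaperones and folding enzymes 7 rose, 0 fell and 18 did neither, beside 5.91% up and 6.2% down of all genes tested. All 25 had a log2 difference above 0 (median 2.35), where the median of all genes tested was -0.14. Calr (NM_007591), the lectin chaperone calreticulin, was at 243 and 5.85 RPKM in the untreated libraries and 1300.3 and 1150.1 RPKM at 2 h, a log2 change of 4.90 with SE 1.23 (adjusted p in limma 0.0333). Untreated replicate 2 was low and replicate 1 lay between it and the 2 h libraries. The change was 2.32 without untreated replicate 2 and 7.48 without replicate 1. Hspa5, the chaperone BiP, had 198 and 3.1 and then 987 and 717 RPKM and did not pass (4.88, adjusted p = 0.0553).

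Further rises were Sdf2 at 4.22, the Hsp70 relative Hspa13 at 3.25, the secreted survival factor Manf at 3.21, the BiP partner Dnajb11 at 3.04 and the prolyl isomerase Fkbp2 at 2.91. Without untreated replicates 2 and 1 in turn, Sdf2 had 3.37 and 5.08, Hspa13 2.12 and 4.38, Manf 2.19 and 4.22, Dnajb11 2.06 and 4.01 and Fkbp2 1.84 and 3.98. Xbp1, the stress transcription factor spliced by IRE1 and no lumenal protein itself, went from 24.2 and 16.6 to 83.1 and 107 RPKM (2.18, adjusted p = 0.0225), with untreated libraries close together. Disulfide isomerases P4hb, Pdia3 and Txndc5 had 1.45, 2.35 and 0.75, did not pass, and had overlapping groups. Without untreated replicate 2 the list had 0 up and a median of 0.76, and without replicate 1 it had 17 up and a median of 3.79. Without either 2 h library 0 passed.

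Other secreted and membrane proteins were higher too, with log2 differences above 0 in 39 of 42 and 21 of 23 tested members. Of all genes tested 5.91% rose and 6.2% fell, and their median was -0.14. Matrix and secreted proteins had 5 of 42 up (median 1.65, or 0.04 without untreated replicate 2 and 3.44 without replicate 1), and receptors and membrane proteins 4 of 23 (1.596, or 0.065 and 3.189). Of ER-associated degradation genes 3 of 12 rose (1.28, or -0.031 and 2.998). None of these 3 lists had a gene down (1 of ER-associated degradation with equal sums, and then 0 up), and each had 0 up without untreated replicate 2 or either 2 h library. Timp1, an inhibitor of matrix proteases, went from 175 and 80.2 to 1373 and 2281 RPKM, a log2 change of 3.89 with SE 0.57 (adjusted p in limma 0.00714). Sparc, a collagen-binding matrix protein, went from 180.3 and 12 to 851 and 843 RPKM (4.13), the hyaluronan receptor Cd44 from 48.9 and 6.09 to 279 and 346 RPKM (4.05) and the tetraspanin Cd81 from 73.2 and 3.38 to 519.9 and 299.8 RPKM (4.46). Without untreated replicates 2 and 1 in turn, Sparc had 2.23 and 6.03, Cd44 2.64 and 5.46 and Cd81 2.41 and 6.50. Over all 623 genes marked TRUE 119 (19.1%) rose and 7 (1.12%) fell, with a median of 1.40 that became 0.56 without untreated replicate 2 and 2.42 without replicate 1. Over the 4348 marked FALSE 175 (4.02%) rose and 301 (6.92%) fell, with a median of -0.28. The part of the untreated libraries' difference in these results was not tested.

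The Calr window (chr8:84846882-84847181, minus strand) is shown because it holds the ER stress element, CCAAT followed at a fixed distance by CCACG on either strand, through which ATF6 is known to act. Capitals mark it together with CCAAT and TATAAA, which here includes the CCAAT within the element.
Calr: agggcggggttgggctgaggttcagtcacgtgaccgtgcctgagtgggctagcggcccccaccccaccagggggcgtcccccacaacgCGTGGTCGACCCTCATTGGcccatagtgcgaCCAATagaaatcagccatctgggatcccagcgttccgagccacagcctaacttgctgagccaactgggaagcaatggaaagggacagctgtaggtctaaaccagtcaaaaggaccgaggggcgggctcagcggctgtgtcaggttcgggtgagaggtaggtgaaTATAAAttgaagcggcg
The element was found in 5 of 20 tested ER chaperones with a window (25%), in 0.156% of the tested genes and in 0.13% of all windows. Of 235 genes that rose and had a window it was found in 1 (0.426%), which is Calr. A link between the element and the rises was not tested.

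Kif5b (NM_008448), the heavy chain of conventional kinesin, was at 109 and 79.2 RPKM in untreated cells and 5.73 and 6.04 RPKM at 2 h, from 164 and 2287 and then 10 and 11 reads. Both libraries at 2 h were more than 10 times lower than either untreated one, with a log2 change of -3.77 with SE 0.59 (adjusted p in limma 0.00779). Ap2a1, a subunit of the clathrin adaptor AP2, went from 68.5 and 43.2 to 2.31 and 5.54 RPKM (-3.57). Fasn, fatty acid synthase, went from 40.5 and 82.8 to 3.08 and 5.07 RPKM (-3.57), and Cad, the enzyme that starts pyrimidine synthesis, from 28.6 and 39.4 to 1.98 and 2.38 RPKM (-3.44). Each was clearly apart between the groups. The other 8 of the 12 largest were Smarcc1 at -3.39, Strap at -3.37, the deubiquitinase Usp47 at -3.30, the actin regulator Nckap1 at -3.29, the polyadenylation scaffold Sympk at -3.28, the corepressor Trim28 at -3.24, the topoisomerase Top2b at -3.12 and Fam129b at -3.07. Of these 12, none passed in all 4 fits that leave out 1 library.

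Chromatin regulators were lower at 2 h. Of 41 tested 11 fell and 0 rose, with a median of -1.16 beside -0.14, and of all genes tested 6.2% fell. In 34 both libraries at 2 h were below both untreated ones, which held for 36.5% of all genes tested. Smarcc1, a core subunit of the SWI/SNF remodeller, went from 129 and 61.6 to 4.5 and 12.5 RPKM, a log2 change of -3.39 with SE 0.60 (adjusted p in limma 0.0108). Trim28, which recruits silencing enzymes, went from 107 and 168 to 8.59 and 20.3 RPKM, and the deacetylase Hdac2 from 80.1 and 67.4 to 10.2 and 10.8 RPKM (-2.70). The helicases Hells, Smarca5 and Smarca4, the insulator protein Ctcf, Smarce1, Hdac3, the histone chaperone Ssrp1 and Nap1l4 were the other members that fell, between -2.59 and -1.46. The list had 3, 1, 0 and 2 down without untreated replicates 1 and 2 and 2 h replicates 1 and 2, with medians of -1.12 to -1.23.

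Some members of the folding and transport machinery of the cytosol fell. All 8 subunits of the chaperonin CCT, which folds actin and tubulin, had both libraries at 2 h below both untreated ones. That held for 36.5% of all genes tested. Of the 8 subunits 5 passed, beside 6.2% down of all genes tested, and the median was -1.54. Tcp1, the subunit CCT1, went from 424 and 285 to 76.3 and 44.7 RPKM (-2.55, adjusted p = 0.0225). Of 25 heat shock proteins 5 fell, 0 rose and the median was -0.50. They were the co-chaperones Dnaja2 at -2.41 and Dnaja1 at -2.10, the mitochondrial Hspd1 at -1.99, Hsp90ab1 at -1.91 and Hspa4 at -1.63. Hsp90ab1 went from 921 and 1039.5 to 263 and 256 RPKM. Nuclear transport factors had 8 of 28 down and 1 up (median -1.19), with importin beta, Kpnb1, from 194 and 237 to 39 and 36.2 RPKM (-2.48) and Ipo5 at -2.23. Nup155, a nuclear pore protein, was the riser at 1.64. Without untreated replicate 1 these 3 lists had 1, 2 and 4 down, and without any 1 of the other 3 libraries 0.

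Motors, ubiquitin enzymes and the cell cycle followed the same direction in part. Of 41 kinesins, dyneins and myosins 11 fell and 1 rose (median -0.47), with the myosin Myo5a at -2.80, the dynactin subunit Dctn1 at -2.50 and Kif2a at -2.29. Of 77 ubiquitin-conjugating and ligase enzymes and their relatives 13 fell and 1 rose (-0.84), among them Usp9x at -2.92 and the cullin Cul1 at -2.44, and with the mitotic Ube2c up at 2.39. Cell cycle genes had 6 of 40 down and 0 up (-0.71). All genes tested had 5.91% up and 6.2% down. Cyclin D2, Ccnd2, went from 217 and 315 to 41.9 and 40.2 RPKM (-2.64, adjusted p = 0.0128), the condensin subunit Smc2 had -1.98 and Top2a -1.86. Without untreated replicate 1 the 3 lists had 4, 4 and 3 down, without untreated replicate 2 they had 1, 2 and 0, and without a 2 h library at most 1.

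**Figure D4:**
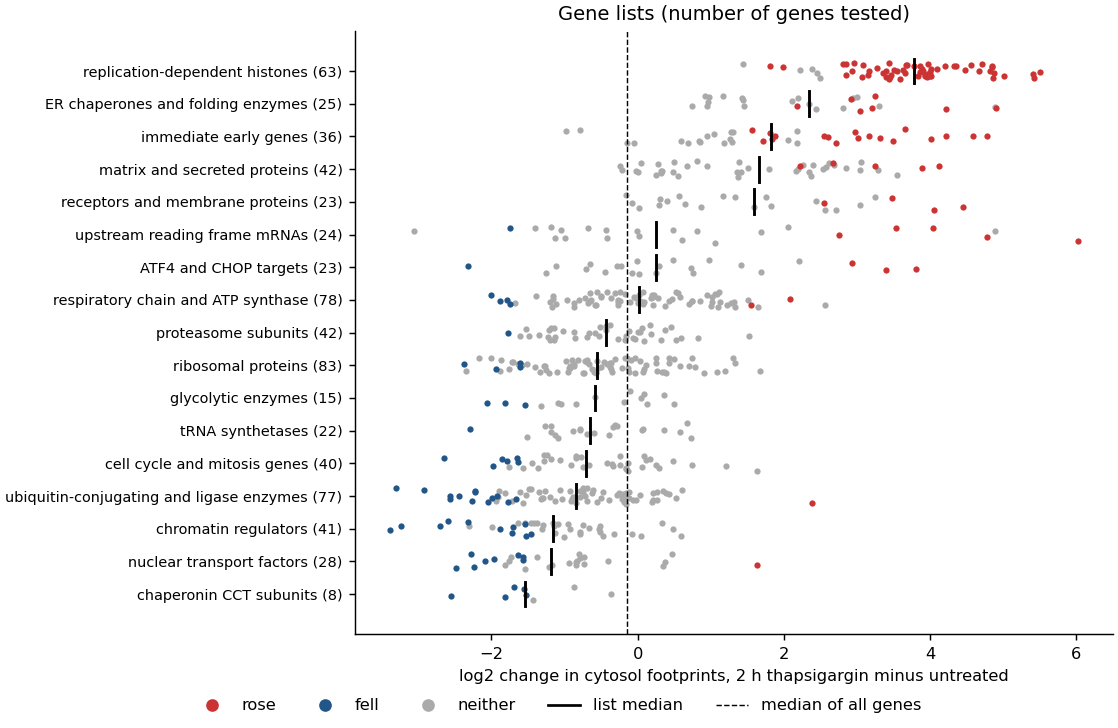
Log2 change at 2 h of every tested member of 17 gene lists, with the number tested in brackets; red and blue points passed the test, black bars are list medians and the dashed line is the median of all genes at -0.14. Histones lie highest with a median of 3.77, and CCT subunits lowest with -1.54.

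Calls in the translation apparatus depended on the scaling. Over all 4971 genes tested 294 (5.91%) rose and 308 (6.2%) fell, and with equal sums 183 and 744. Of 83 tested ribosomal proteins 4 fell and 0 rose (median -0.56, 16 down with equal sums), with Rpl8 from 905 and 1339 to 193 and 234 RPKM (-2.37) and Rps3a1, Rps15a and Rpl5 between -1.93 and -1.61. Eif4a2, a helicase of cap-dependent initiation, was the only one of 53 translation factors to rise, from 120.4 and 49.8 to 599 and 604 RPKM, a log2 change of 2.94 with SE 0.47 (adjusted p in limma 0.00779). The elongation factor Eef2 went from 761 and 1338 to 164 and 231 RPKM (-2.37, adjusted p = 0.0394), and the release factor Etf1 fell by 1.76 on the log2 scale. These were 2 of 3 translation factors that fell, beside 8 with equal sums and 9 with the replicate block. Eif2s3x, the gamma subunit of eIF2, went from 270.3 and 269 to 49 and 67.2 RPKM (-2.21). The target of the kinases, eIF2alpha (Eif2s1), had overlapping groups and -1.11. Ppp1cc, a catalytic subunit of the phosphatase that GADD34 would direct, fell from 244 and 161 to 61.4 and 27.8 RPKM (-2.23, adjusted p = 0.0261), while Ppp1ca and Ppp1cb had -0.98 and -0.68 and did not pass.

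Among subunits of the eIF2B exchange factor Eif2b2 had 1.58, Eif2b4 -1.25, Eif2b1 0.73 and Eif2b3 0.06, and neither these nor Eif2b5 passed. Eif2ak1, the only eIF2alpha kinase listed in all 4 libraries, had 6.22 and 6.14 RPKM untreated and 5.34 and 5.98 RPKM at 2 h and did not pass (-0.11). Of 22 tRNA synthetases and partners 1 fell, Vars at -2.29, and 0 rose (median -0.65, 7 down with equal sums). Without untreated replicate 2 or either 2 h library 0 genes of the lists of ribosomal proteins, translation factors, eIF2 genes and tRNA synthetases passed.

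Calls in metabolic and other lists depended on the scaling, with falls counted more often at equal sums. The shares over all genes tested were 5.91% up and 6.2% down in the main fit. Glycolytic enzymes had 3 of 15 down and 0 up (median -0.58, 5 down with equal sums), with lactate dehydrogenase A, Ldha, from 1070.5 and 1449 to 362 and 505 RPKM (-1.54) and Pfkl at -2.06. In fatty acid and sterol synthesis Fasn fell while the desaturase Scd2 and Sc4mol, both ER membrane enzymes, rose by 3.603 and 2.99, of 15 tested. Without untreated replicates 2 and 1 in turn, Scd2 had 2.42 and 4.78 and Sc4mol 1.74 and 4.25. Respiratory chain genes had 2 up and 4 down of 78 (0.03), mitochondrial ribosomal proteins 1 up and 1 down of 59 (0.13) and proteasome subunits 1 down of 42 (-0.43). Equal sums gave 7, 3 and 11 down in these 3 lists, and the replicate block 9 down for the proteasome. RNA-binding and splicing proteins had 3 up and 5 down of 61 (14 down with equal sums and 12 with the replicate block). Those up were the kinases Clk1 and Clk4 at 2.38 and 2.25 and the cold-induced Cirbp at 2.12, and Hnrnpr at -2.54 led the falls. NRF2 targets had 2 of 16 down, p53 targets 1 up and 1 down of 10, and abundant cytosolic proteins 2 up and 4 down of 52 (20 down with equal sums and 14 with the replicate block), with the talin Tln1 at -2.69 and the scaffold Iqgap1 at 1.86. Without untreated replicate 2 or either 2 h library at most 1 gene of each of these lists passed.

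NF-kB and cytokine genes differed between replicates 1 and 2 at 2 h and at the other treated times. At 2 h they held 0.0601% of the summed RPKM in replicate 1 and 0.369% in replicate 2. In untreated cells they held 0.091% and 0.0515%, so the groups overlapped. Replicate 2 was also the higher at 0.5 h (0.02067% and 0.178%), 1 h (0.03265% and 0.22%) and 4 h (0.0796% and 0.548%). The library labelled 0.5 h replicate 2 is the one that lists Ppp1r15a. The chemokine Cxcl1 had 53.1 and 9.32 RPKM in untreated cells, was not listed in 2 h replicate 1 and had 444 RPKM in 2 h replicate 2. The cytokine Il6 was not listed in 2 h replicate 1 either and had 75 RPKM in replicate 2. Of 9 tested 1 rose, the growth factor Csf1 at 4.15, and 0 fell, beside 5.91% up and 6.2% down of all genes tested. The list median of 1.39 was 3.08 without 2 h replicate 1 and -0.304 without 2 h replicate 2. Cxcl1 and Il6 were named after their values were seen.

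The median change was lower in genes with longer coding sequences. In 5 groups of about equal size the median log2 change was 0.28 for 26 to 201 codons, -0.02 for 202 to 342, -0.13 for 343 to 510, -0.31 for 511 to 803 and -0.58 for 804 to 5657. In the shortest group 11.8% of genes rose and 1.1% fell, and in the longest 1.81% rose and 12.9% fell. Without histones and ribosomal proteins the shortest group had a median of 0.25. Genes that rose had a median of 236.5 codons and those that fell 655, beside 421 for all tested. The lowest read number in a library had medians of 10, 10 and 11 reads in these 3 sets. Libraries of 1 group also differed with length: the median of replicate 1 minus replicate 2 was 0.424 in the shortest group and -0.125 in the longest at 2 h, and 0.105 and 0.234 in untreated cells. Genes are no replicates, and the part of these differences in the trend was not tested. The gene lists above, motors and ubiquitin enzymes among them, were set beside all genes tested and not beside genes of like length. The part of length in their changes was not tested either.

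Footprints at 2 h were also set beside the neighbouring times of the same fraction, to see whether the state of 2 h was still changing. Limma called 0 genes up and 0 down of 5857 between 1 and 2 h (77 up and 123 down at an unadjusted p under 0.05). Between 2 and 4 h it called 0 and 0 of 4588 (62 and 42). With 2 libraries per group, 0 calls do not show that footprints had stopped changing. Ddit3 stood at 177 and 219.9 RPKM at 0.5 h, 265 and 503 RPKM at 1 h and 549 and 592 RPKM at 4 h. Hist1h2ae stood at 1535 and 1260.2, 2064 and 4011 and 3616 and 4339 RPKM at these times. Kif5b had 22.3 and 31.9 RPKM at 0.5 h, 26.8 and 9.74 at 1 h and 16.5 and 5.32 at 4 h, and Fasn 12.3 and 39.7, 11.4 and 11.4 and 4.23 and 4.32. All 4 were outside the untreated range in both libraries at 0.5 h, Fasn only just in the one labelled replicate 2. That library is the one with 19.3 RPKM of Ppp1r15a, the deleted gene, so its values at 0.5 h, here and in the shares, carry that doubt. It is also 1 of the 10 libraries from which the main test took its spread. The fit with only the groups compared leaves out all 0.5, 1 and 4 h libraries and gave 137 up and 125 down. A fit without this library alone was not run. The 0.5, 1 and 4 h groups share the untreated libraries with 2 h and are given side by side only.

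Shares of summed RPKM were followed over the same times. Histones held 9.76% and 7.88% at 0.5 h, 10.9% and 24.5% at 1 h, 23.6% and 29.4% at 2 h and 25.96% and 32.29% at 4 h. CCT subunits went from 0.534% and 0.519% in untreated cells to 0.138% and 0.152% at 2 h, and chromatin regulators from 0.909% and 0.636% to 0.317% and 0.209%. Immediate early genes held 0.460% and 0.492% in untreated cells and 0.926% and 1.28% at 1 h. They held 2.36% and 2.12% at 2 h and 1.78% and 2.24% at 4 h, so 1 h and 2 h did not overlap. ER chaperones were at 0.247% and 0.0185% untreated and 0.585% and 0.427% at 2 h, so the wide gap was within the untreated group. In these 5 lists the untreated and 2 h groups did not overlap.

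**Figure D5:**
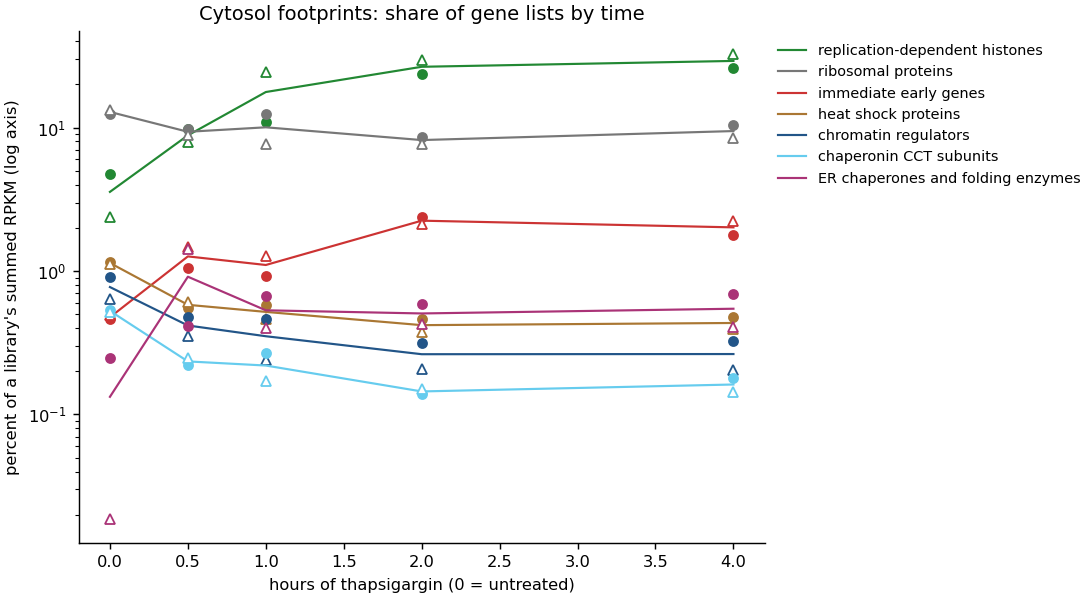
Percent of a library's summed RPKM (log axis) held by 7 gene lists in cytosol footprints against hours of thapsigargin, 0 being untreated; circles are replicate 1, open triangles replicate 2 and lines join the means. Histones reach 23.6% and 29.4% at 2 h, and the lone low triangle at 0 h is ER chaperones in untreated replicate 2, at 0.0185%.

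Genes outside the test also changed in what was listed. Of the genes with a value in both libraries at 2 h, 73 had none in either untreated library, and 67 of these 73 are marked TRUE. The 3 with the highest lower value, named after their values were seen, were Ifi30, a lysosomal thiol reductase, at 33.3 and 124 RPKM, Tmco1 at 43.9 and 28.1 RPKM and the sterol isomerase Ebp at 35.9 and 23 RPKM. A gene is listed from 4 reads, which for Ifi30 is 10.3 RPKM in untreated replicate 1 and 0.54 RPKM in replicate 2. The reverse, listed in both untreated libraries only, held for 814 genes, 76 of them marked TRUE, with a median of 6 reads in untreated replicate 1. Of the genes tested, 623 are marked TRUE and 4348 FALSE.

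Whether the cytosol change differs from that on the ER was tested with an interaction of fraction and time in 2908 genes listed in all 8 libraries. The change was higher in the cytosol for 48 genes (1.65%) and lower for 4 (0.138%), with the median gene at -0.42. Of the 48, 47 are marked TRUE. Of all genes in this test with a mark, 444 are marked TRUE and 2463 FALSE. Sparc had 1859 and 2810.5 RPKM in untreated ER footprints and 1166 and 802 RPKM at 2 h, lower at 2 h there while the cytosol rose, a difference of 5.37 (limma adjusted p = 0.0378). Kdelr2, the receptor that returns ER proteins, had 386 and 556 and then 233 and 166 RPKM on the ER and 33.2 and 7.85 and then 298 and 254 RPKM in the cytosol (5.22, adjusted p = 0.0176). Wasf2, an actin regulator, showed the opposite, with 16.9 and 9.17 and then 23 and 22 RPKM on the ER and 41.3 and 26.6 and then 4.43 and 8.51 RPKM in the cytosol (-3.05, adjusted p = 0.0229).

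Of 62 histones and 20 upstream-frame mRNAs in this test 0 were called, which does not show that the fractions changed alike. Ddit3 had 5.01 and 11.3 RPKM on the untreated ER and 509 and 475 RPKM at 2 h, a difference of 0.18, and Hist1h2ae had 2.48 (adjusted p = 0.0818). The 48 and 4 calls rest on single libraries: 324 and 12 genes were called without cytosol untreated replicate 1, 2 and 0 without cytosol untreated replicate 2, 15 and 1 without ER untreated replicate 1, and 0 and 0 without any other library of the 8. With only the groups compared in the fit, 0 and 0 passed. ER untreated replicate 2, a library of this test, lists the deleted gene Ppp1r15a at 2.89 RPKM, so its values carry a doubt too.

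Footprints were last set against cytosol mRNA, to separate a change per mRNA from a change in the mRNA itself. In 1877 genes listed in all 8 libraries, 1 (0.0533%) rose more in footprints than in mRNA and 0 fell (62 and 49 at an unadjusted p under 0.05). That gene was Ddit3, with 84.2 and 133 RPKM of mRNA in untreated cells and 175 and 124 RPKM at 2 h. The mRNA groups overlapped, and the difference of the log2 changes was 5.55 (limma adjusted p = 0.0186). Atf4 had 50.3 and 107 and then 77.1 and 72.9 RPKM of mRNA, a difference of 4.00 that did not pass (adjusted p = 0.388). Calr mRNA went from 51.9 and 17.9 to 533 and 155 RPKM and Tcp1 mRNA from 324 and 302 to 225 and 219 RPKM, and neither gene passed this test. Cytosol mRNA libraries held 258549 and 48218 recovered reads in untreated cells and 295523 and 208437 at 2 h. In replicate 2 they list genes from 1 read, with a median of 2 reads per listed gene untreated and 3 at 2 h. The mRNA values of replicate 2 may therefore rest on few reads. Only 2 of the 63 histones could be tested this way. The Ddit3 call was lost without cytosol footprints of untreated replicate 2, without either 2 h footprint library, without mRNA of untreated replicate 2 and without either 2 h mRNA library.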

How the data were processed

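Footprints and mRNA of ER and cytosol fractions were sequenced in 40 samples, and the 4 cytosol footprint libraries of untreated and 2 h cells are compared here. The authors deposited RPKM values per RefSeq gene, aligned with Bowtie per the submitters' processing notes, which also name the human build hg19, so no coordinates were taken from the table. The unit was inferred. In the 13206 genes with values in at least 2 libraries, each value was a whole number of reads (tolerance 2e-05), per coding length and with a factor per fraction. A blank was read as not listed.

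RPKM was tested as log2(RPKM + 1) with limma 3.58.1 in R 4.3.3 (trend on, 2-sided, Benjamini-Hochberg threshold 0.05) over all 10 cytosol footprint libraries. Genes needed a value in each library compared and a mean of 1 RPKM, and fold changes of low genes are understated by the pseudocount. Interactions with fraction and with mRNA were fitted likewise. The code was tested on simulated data. Alternatives were other pseudocounts (0.1 and 5), filters, scalings, weights, a replicate block and leaving out each library, and 2 more were chosen after seeing the data (no factor per fraction, at least 20 reads). Named genes were the 12 largest changes per direction, up to 6 members of each list, all members of 4 lists, and 5 genes per direction elsewhere. Hist1h1a, Nup155, the remaining chromatin regulators and ribosomal proteins that fell, and the histones that did not pass were named after their values were seen. The members and lists were chosen with earlier results of these data known. In 7 gene pairs the values were identical.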

Additional observations from a re-analysis of the deposited data

Results flagged for a closer look

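The change at 2 h was compared between the cytosol and the ER fraction by an interaction term in limma, and differed for 48 genes that changed more upward in the cytosol and 4 that changed more downward. The 5 largest of the former were Sparc at 5.37, Bcap31, an ER membrane sorting protein, at 5.26, Kdelr2 at 5.22, Cd44 at 5.10 and the lysosomal enzyme Ctsa at 4.895, as cytosol log2 change minus ER log2 change. Bcap31 had 20.9 and 2.04 RPKM in the untreated cytosol and 98.8 and 86.2 RPKM at 2 h, and on the ER 150.4 and 163 and then 38.8 and 54.4 RPKM. The 4 in the other direction were Wasf2 at -3.05, the exchange factor Arhgef1 at -2.75, Rrp12 of ribosome assembly at -2.725 and Wdr6 at -2.46. Arhgef1 had 24.4 and 26.6 RPKM in the untreated cytosol and 2.4 and 2.88 RPKM at 2 h, and on the ER 12.7 and 12.8 and then 12.4 and 10.9 RPKM. Without cytosol untreated replicate 1 the counts were 324 and 12, and without cytosol untreated replicate 2 they were 2 and 0.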

How the results depend on the processing

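For 2 h against untreated (294 up, 308 down), equal sums gave 183 and 744, the replicate block 437 and 606, only the groups compared 137 and 125, blanks read as 0 163 and 57, and at least 20 reads 103 and 138. Leaving out 1 library gave 5 to 618 up and 0 to 101 down. No named gene reversed, and of 134 named calls 72 were kept with only the groups compared and 54 with blanks as 0. For cytosol minus ER (48 up, 4 down) the counts were 31 and 3 with a pseudocount of 0.1, 68 and 5 with 5, 18 and 2 with equal sums, 96 and 6 with median centring, 86 and 11 with the replicate block, 0 and 0 with only the groups compared, 5 and 0 with blanks as 0, 98 and 8 with weights from reads, 25 and 4 without the factor per fraction, 5 and 0 with at least 20 reads, and 0 to 324 and 0 to 12 leaving out 1 library. For footprints minus mRNA (1 up, 0 down) they were 7 and 1 with the replicate block, 0 and 0 with equal sums, only the groups compared, blanks as 0 or at least 20 reads, and 0 to 1 up leaving out 1 library. The labels do not say whether a number marks a shared culture. Replicate differences of cytosol footprint groups correlated at -0.192 to 0.651, with 7 of 10 pairs of groups over 0.1. Untreated and 2 h were at 0.207, the 6 pairs without 0.5 h at 0.159 to 0.651, and the 3 pairs below 0.1 all involve 0.5 h, so the pairing is unsettled. Comparisons with 1 and 4 h had 0 calls under every alternative run. The causes were not tested. Low read numbers limit single genes: the median tested gene had 11 reads in its shallowest library.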
